A study of Mus musculus with 33 samples.

Results

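A pair of baits placed at the T cell receptor alpha enhancer Eα were compared in DP thymocytes, which here are CD4+ CD8+ cells of *Rag1*-/- mice. The members were chosen by their labels. They are the 1 library made with the second bait and the 3 libraries made with the first bait, 4 of the 33 libraries of the series. The assay was 3C-HTGTS, in which cross-linked chromatin is cut with MboI and ligated, and the products are amplified from a primer in the bait and sequenced. A read that holds the bait followed by 2 or more other MboI fragments records a three-way contact. All 4 libraries have the same genotype and treatment: C57BL/6 mice lacking *Rag1*, with the CTCF-binding element next to Eα (EACBE) intact, given anti-CD3 antibody at 3 weeks of age, with thymi taken 10 days later. Cells were fixed with 1% formaldehyde and digested with 200 units of MboI. Without RAG1 the locus cannot recombine, so it was measured in its germline form, and anti-CD3 stands in for the pre-TCR signal. The identity of the cells could not be checked against marker genes, because contact reads carry no expression. The labels do not say whether the libraries of the first bait came from separate mice. With 1 library, the second bait has no replicate check, so each of its values is set against the lowest and highest of the 3 first-bait libraries and no test was made.

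The *Tcra*–*Tcrd* locus holds the V genes upstream, the *Tcrd* D, J and C segments in the middle, and the Jα array, *Trac* (the constant region gene) and Eα downstream. Eα drives transcription and rearrangement of *Tcra* in DP thymocytes, in part by long-range contact with the TEA promoter (TEAp) at the upstream end of the Jα array. The INTs are a pair of CTCF-binding elements between the V genes and the *Tcrd* segments. CTCF stops cohesin as it extrudes chromatin loops, so its binding sites often form the anchors of contacts.

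The first bait lies outside the MboI fragment that contains Eα, and the second was placed inside it. The biotinylated primer of each bait had 1 exact match in the GRCm38 (mm10) reference sequence of chromosome 14, and the bait fragments adjoin each other. Positions and distances are those of this primer, since the nested primer, which lies between it and the ligated end in the assay, was not placed. The first bait is the fragment chr14:54225987-54227254, of 1268 bases. Its primer matches 54226081 to 54226100 on the minus strand and points upstream, towards *Trac*, with 94 bases left to the MboI end that is ligated. The second bait is the fragment chr14:54227255-54227584, of 330 bases. Its primer matches 54227491 to 54227510 on the plus strand and points downstream, towards *Dad1*, with 74 bases left to the ligated end. Both fragments lie between *Trac* (54220521 to 54224206) and *Dad1* (54235479 to 54254104), outside any annotated gene.

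The reference sequence that each primer reads into is given, because the position and direction of the primers are what differs between the baits. Capitals mark 2 motifs in the first line and the primer stretch in the others.
Second bait, chr14:54227465-54227584, plus strand: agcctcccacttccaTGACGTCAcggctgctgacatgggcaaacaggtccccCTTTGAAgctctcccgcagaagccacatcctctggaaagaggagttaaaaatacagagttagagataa
Second bait around its primer, chr14:54227481-54227520, plus strand: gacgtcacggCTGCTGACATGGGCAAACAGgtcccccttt
First bait, chr14:54225987-54226106, minus strand: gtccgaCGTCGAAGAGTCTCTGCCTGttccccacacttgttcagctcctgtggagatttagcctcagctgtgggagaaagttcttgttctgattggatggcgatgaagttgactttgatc

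TGACGTCA is the sequence bound by ATF and CREB factors, and CTTTGAA is one bound by TCF and LEF factors. Both were searched on both strands. The fragment of the second bait holds TGACGTCA at 54227480 to 54227487 and CTTTGAA at 54227517 to 54227523, and the fragment of the first bait holds neither. Cut into tiles of 330 bases, 0.118% of the region of analysis holds TGACGTCA and 9.02% holds CTTTGAA. For tiles of 1268 bases, the length of the first bait, the shares are 0.454% and 29.0%. The motifs were chosen after the sequence was read.

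The deposited counts hold the reads that fall in each pair of 5 kb bins, and the read lists hold the first 2 fragments after the bait. Both fragments lay in the region of analysis, 53740001 to 54300000 of chromosome 14, in 41921, 17006 and 18606 reads of the first bait and in 72123 reads of the second. These reads came from 10407, 6682 and 7111 distinct pairs of aligned fragments for the first bait and 12574 for the second. The second bait thus had 5.74 reads per distinct pair in the region against 2.55 to 4.03. Shares are given over reads, and the direction was checked over distinct pairs counted once. Of all chromosome 14 reads, 64.5% (95% Wilson interval 64.2 to 64.8%) had both fragments in the region with the second bait, against 55.8, 59.5 and 55.9% with the first. All intervals cover counting error only, since PCR copies of a ligation product are not independent molecules. The read names show 1 sequencer for replicate 1 of the first bait, another for replicates 2 and 3, and 2 further ones for the second bait. The bait and the sequencer therefore cannot be told apart. The 2 sequencers of the second bait shared 9249 distinct pairs, 78.5% of those of the smaller run, and their counts correlated with a Pearson coefficient of 0.991 over the 6328 pairs of bins.

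The fragments closest to the baits differed with the direction of reading. The fragment from 54225118 to 54225986, next to the ligated end of the first bait, was listed at 0 in the 3 first-bait libraries and held 0.191% of the fragments of the second. The fragment from 54227585 to 54228260, next to the ligated end of the second bait, was at 0 in the second and held 0.162, 0.350 and 0.215% with the first. Each bait thus had its own next fragment at 0. The authors removed self-ligated and continuous fragments before deposit. Neither bait fragment was listed in any of the 4 libraries. A count of 0 allows a share of up to 0.00208% of the fragments with the second bait and 0.00358 to 0.00882% with the first.

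Upstream of the baits the second bait recovered less of the Jα–*Trac* side. Within 10 kb upstream of the border between the bait fragments, it held 3.70% of the fragments against 9.08, 9.46 and 8.67% with the first bait. From 10 to 20 kb it held 2.85% against 7.15, 6.10 and 6.86%, and from 20 to 40 kb 4.03% against 7.58, 6.58 and 6.63%. In each of these 3 steps the second bait lay below all first-bait libraries, at 0.408, 0.425 and 0.581 of their mean. From 40 to 60 kb upstream the order turned, with 15.7% for the second bait against 10.4, 12.02 and 11.3%. The ratio of 1.40 to the mean of the first bait was 1.18 over distinct pairs. Counted so, the second bait held 13.1% against 9.82, 12.1 and 11.3%. It was also above the range from 60 to 100 kb (14.5% against 10.8, 12.1 and 11.9%) and from 100 to 200 kb (24.3% against 19.3, 20.4 and 20.9%). Beyond 200 kb the baits overlapped, with 10.6% at 200 to 300 kb and 15.4% at 300 to 500 kb for the second bait, both within the range of the first. Downstream, the second bait held 4.50% within 10 kb against 2.82, 3.97 and 2.86%, and 0.553% from 40 to 60 kb against 0.941, 0.647 and 0.855%.

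**Figure D1:**
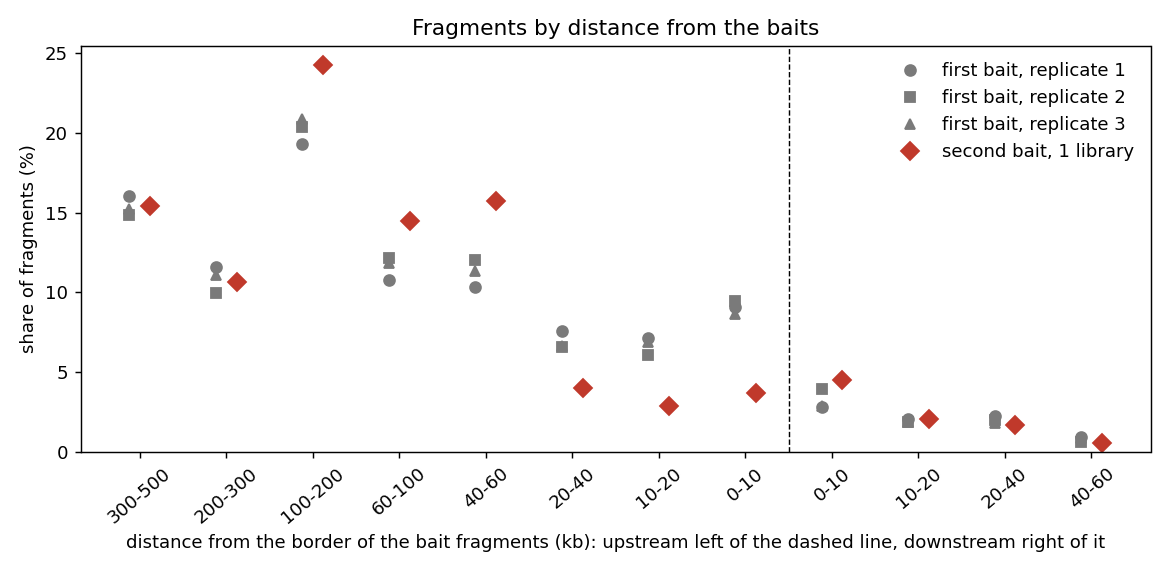
Share of fragments (percent, y axis) in 12 steps of distance from the border of the 2 bait fragments (kb, x axis), with upstream left of the dashed line and downstream right of it. Grey symbols are the 3 first-bait libraries and red diamonds the 1 second-bait library, which lies below all grey symbols in the 3 steps up to 40 kb upstream and above them from 40 to 200 kb.

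Counted by the 8 segments of the locus, the INTs had the highest ratio of the second bait to the first and the *Trac* and enhancer segment the lowest. The windows of the INTs and of the proximal Jα segment were inferred from the description of the locus, as the sources used here give no coordinates for them. The INTs (54055001 to 54070000) held 12.7% of the fragments with the second bait (95% interval 12.5 to 12.8%), against 8.17, 8.80 and 8.84% with the first, a ratio of 1.47 to their mean of 8.60 ± 0.375% (SD, n = 3 libraries). The proximal Jα segment (54150001 to 54165000), which holds *Traj61* to *Traj53* and the TEAp side of the array, held 6.82% against 4.66, 5.54 and 5.33%. Both stood above every first-bait library. The *Trac* and enhancer segment (54220001 to 54230000) held 4.45% against 7.36, 7.76 and 6.69%, a ratio of 0.611. Its bins went opposite ways, so this fall is that of the *Trac* bin. The *Trac* bin from 54220001 was below the range, at 2.09% against 5.93, 5.54 and 5.14%. The enhancer bin from 54225001 was above it, at 2.355% against 1.43, 2.22 and 1.55%, and also over distinct pairs. The distal Jα segment (54165001 to 54220000) held 26.9% against 30.2, 30.8 and 30.6%, below 3 libraries that lie close together. The *Tcrd* D–J–C segment held 14.1% against 12.5, 13.6 and 13.7%. The proximal V segment (53795001 to 54055000) did not separate the baits, at 26.0% against 27.6, 24.4 and 26.2%, and neither did the downstream segment, at 6.83% against 7.01, 6.81 and 6.31%. The upstream V segment was just under the range in reads (2.18% against 2.31 to 2.44%) and within it in distinct pairs.

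Shares add up to 100%, so fewer fragments near the baits raise the share of the rest. Without the pairs that have a fragment from 54185001 to 54230000, a window chosen after the data were seen, the INTs held 14.9% with the second bait against 11.6, 11.8 and 12.4%, a ratio of 1.25. On this base the proximal Jα segment was at 7.76% against 6.14, 7.27 and 6.76%. The proximal V segment was then below the range, at 30.1% against 37.7, 32.7 and 34.4%, and so were the *Tcrd* D–J–C segment, at 16.7% against 17.2, 19.3 and 18.8%, and the downstream segment, at 7.31% against 8.79, 8.27 and 8.11%. What was left of the distal Jα segment turned from below to above the range, at 20.7% against 15.3, 17.7 and 16.4%.

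At the scale of single bins, the second bait was above the range of the first in 26 of the bins of the region (23.2%) and below it in 51 (45.5%). Such counts say little alone. Set against the other 2 libraries of its own bait, each first-bait library was outside their range in 84, 72 and 63 bins, and the second bait against the same pairs in 89, 92 and 83. The size of the differences separated the baits more clearly: 16.8 to 22.4% of the fragments would have to change bins to turn the profile of the second bait into that of a first-bait library, against 7.05 to 9.51% between first-bait libraries. Over distinct pairs these values were 14.1 to 19.1% and 6.24 to 8.94%.

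The 5 bins with the highest ratios, among bins with at least 0.5% of the fragments for either bait, are spread from the V genes to the Jα array. The bin from 54170001, with *Traj47* to *Traj43*, held 8.43% with the second bait against 3.49, 4.78 and 4.06%, a ratio of 2.05 that came to 1.43 over distinct pairs. The bin from 53960001, with *Trdv2-2* (a V gene used by *Tcrd*), held 1.77% against 0.893, 1.09 and 0.997%, a ratio of 1.77. The bin from 54060001, in the INTs, held 7.10% against 3.63, 4.37 and 4.20%, a ratio of 1.75. The other 2 were the bin from 54150001 upstream of *Traj61*, at 1.04% against 0.582 to 0.704%, and the *Trdv1* bin from 53880001, at 1.00% against 0.514 to 0.715%. The 5 bins with the lowest ratios all lie in the last 35 kb before the baits. These are the bin of *Trac* from 54220001 (2.09% against 5.93, 5.54 and 5.14%, a ratio of 0.378), the 2 bins of *Traj7* to *Traj1* (1.84% against 4.68 to 4.71%, and 2.15% against 4.62 to 5.22%), and the bins of *Traj24* to *Traj20* and of *Traj19* to *Traj15*, both near 0.5. All 10 bins were outside the range of the first bait in reads and in distinct pairs. The highest bins of the profile stood out further in reads with the second bait, whose 5 fullest bins held 30.1% of the fragments against 24.4, 25.5 and 24.7%. Over distinct pairs the gap was smaller, at 26.3% against 23.0, 24.6 and 23.4%. The fullest bins that hold 50% of the fragments then numbered 15 against 18, 15 and 17, within the range.

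**Figure D2:**
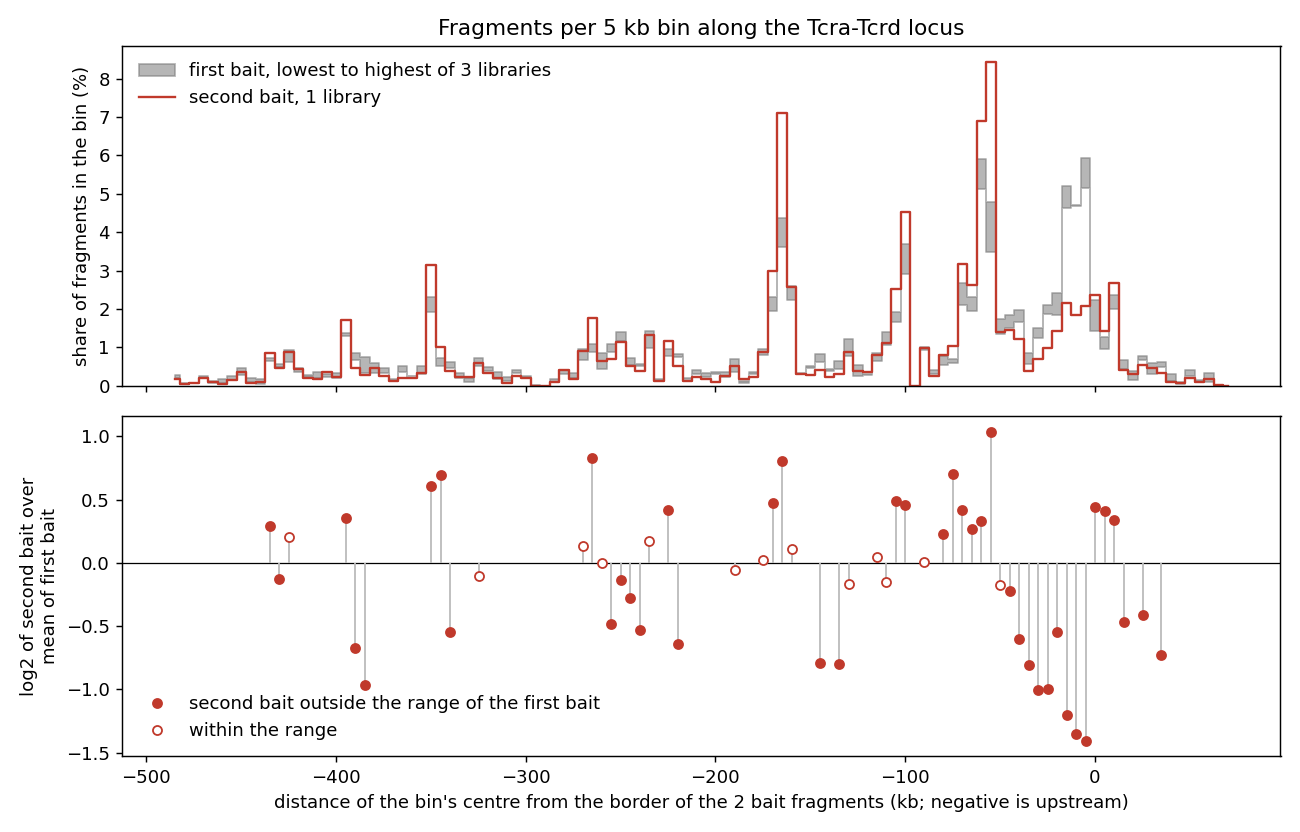
Top: share of fragments per 5 kb bin (percent) against the distance of the bin from the border of the bait fragments (kb), with the grey band from the lowest to the highest of the 3 first-bait libraries and the red line for the second bait. Bottom: log2 of the second bait over the mean of the first for bins with at least 0.5% of the fragments, filled where the second bait is outside the range, with a run of negative values from about 45 kb upstream to *Trac* and the highest value, for the bin of *Traj47* to *Traj43*, about 55 kb upstream.

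Only 7 MboI fragments held 1% or more of the fragments in any of the 4 libraries. They are the fullest fragments at the resolution of the enzyme. The 5 that lie over 10 kb from the baits were chosen after their values were seen, and the threshold could be passed by either bait, so the values are a description. The fragments in the INTs, those of *Traj47* and *Traj46* and the one downstream of the baits reached 1% only with the second bait. That of *Trac* reached it only with the first. For these the side of the range follows from the threshold. Only the fragment between *Traj47* and *Traj46* reached it with both baits. The reference sequences of 4 of them are shown, as the fragments of the highest INT and Jα peaks and of the peak downstream of the baits. Capitals mark the MboI site in the first 3 lines and a CTCF core motif in the last.
INT fragment 1, chr14:54064287-54064348, plus strand: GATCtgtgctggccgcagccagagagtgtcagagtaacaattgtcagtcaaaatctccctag
INT fragment 2, chr14:54064375-54064533, plus strand: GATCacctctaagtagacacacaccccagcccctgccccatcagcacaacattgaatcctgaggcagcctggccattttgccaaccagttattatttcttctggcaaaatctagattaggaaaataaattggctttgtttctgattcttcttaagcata
Jα fragment, chr14:54171877-54171980, plus strand: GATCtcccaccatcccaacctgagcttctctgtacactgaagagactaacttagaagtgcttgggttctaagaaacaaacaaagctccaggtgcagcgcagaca
Downstream fragment, chr14:54228261-54228414, plus strand: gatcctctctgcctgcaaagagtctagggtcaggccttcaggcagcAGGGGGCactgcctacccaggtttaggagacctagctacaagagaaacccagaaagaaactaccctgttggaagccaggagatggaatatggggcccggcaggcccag

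INT fragment 1 held 1.20% of the fragments with the second bait against 0.462, 0.612 and 0.656%, and INT fragment 2 held 1.03% against 0.407, 0.497 and 0.395%. The Jα fragment, in the intergenic stretch between *Traj47* and *Traj46*, was the fullest of all in reads, at 2.70% against 0.878, 1.47 and 1.17%. This is a ratio of 2.30 that was 1.42 over distinct pairs. Counted so, the downstream fragment was fuller with the second bait, at 350 against 343 for the Jα fragment. Its neighbour from 54172004 to 54172723, which contains *Traj46*, held 1.79% against 0.497, 0.776 and 0.433%, a ratio of 3.15 that was 1.72 over distinct pairs. The fragment of *Traj47*, from 54171819 to 54171876, held 1.36% against 0.621, 0.720 and 0.812%. The downstream fragment starts 676 bases after the second bait ends and held 1.49% against 0.714, 0.961 and 0.779%. It contains AGGGGGC, the centre of the CTCF motif, at 54228307 to 54228313, searched on both strands. Of tiles of the same length in the region, 1.57% hold these letters. The INT fragments and the Jα fragment do not hold them, which says only that these letters are not in those windows. The 1 fragment that was lower was that from 54223826 to 54223942, in the last exon and untranslated region of *Trac*, at 0.357% against 1.61, 1.60 and 1.07%.

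Three-way contacts were then counted by the pair of segments the 2 fragments fell in. Of the 36 classes, the second bait was above the range of the first in 10 (27.8%) and below it in 10 (27.8%). A first-bait library set against the other 2 was outside their range in 18, 29 and 25 classes, and the second bait against the same pairs in 23, 28 and 25, so the number of classes did not set the second bait apart. The sizes did: 10.2 to 11.4% of the reads would have to change class, against 5.43 to 6.92% between first-bait libraries.

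The class that joins the proximal Jα segment to the INTs had the highest ratio but one. The highest was that of upstream V with the downstream segment, a rare class at 0.319% against 0.146, 0.0588 and 0.150%. Proximal Jα with the INTs held 1.89% of the reads with the second bait (95% interval 1.79 to 1.99%) against 0.766, 1.28 and 0.774%. This is 2.01 times the mean of the first bait, 0.941 ± 0.296% (SD, n = 3 libraries). It rests on 1361 reads from 235 distinct pairs with the second bait, and on 321, 218 and 144 reads from 94, 92 and 71 distinct pairs with the first. With the proximal Jα segment narrowed to the bin of *Traj61* to *Traj56*, it held 0.883% against 0.291 to 0.764%. Pairs within the INTs held 4.93% against 2.77, 2.98 and 2.70%. Pairs of the INTs with the proximal V segment held 5.00% (95% interval 4.84 to 5.16%) against 3.07, 3.70 and 4.13%, and pairs of the INTs with the *Tcrd* D–J–C segment held 4.48% against 3.02, 2.62 and 3.57%. Without the pairs that have a fragment from 54185001 to 54230000, the INTs with the proximal V segment were within the range, at 6.25% against 4.82 to 6.27%. Pairs of the INTs with the upstream V segment (0.309% against 0.310, 0.429 and 0.301%) and with the distal Jα segment (2.45% against 2.37, 2.59 and 2.12%) did not separate the baits.

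Of the 10 classes below the range, 5 hold the *Trac* and enhancer segment and 5 the distal Jα segment, 1 of them both. The remaining class, upstream V with the *Tcrd* D–J–C segment, holds neither. It was at 0.183% against 0.401, 0.335 and 0.328% in reads, and within the range over distinct pairs. Distal Jα with *Trac* and the enhancer held 2.36% against 4.52, 4.82 and 4.47%, a ratio of 0.513. Pairs within the *Trac* and enhancer segment held 0.728% against 1.60, 2.03 and 1.52%. The proximal V segment with the distal Jα segment held 5.06% against 6.94, 6.44 and 8.09%. Not all classes with these segments were lower. Proximal Jα with distal Jα was above the range, at 4.61% against 3.34, 3.46 and 3.53%. Over distinct pairs it was just above, at 3.62% against 3.11, 3.52 and 3.49%. The *Trac* and enhancer segment was within the range in reads when paired with the INTs, with proximal Jα or with the downstream segment. With proximal Jα it was just below over distinct pairs, at 0.596% against 0.605, 0.629 and 0.633%. The rarest of the lower classes, upstream V with *Trac* and the enhancer, held 0.0305% against 0.248, 0.465 and 0.258%.

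The classes that join V genes to the proximal Jα segment, the partners of primary *Tcra* rearrangement, did not part as clearly. The proximal V segment with the proximal Jα segment held 1.66% with the second bait (95% interval 1.57 to 1.75%), within the 1.33, 1.21 and 1.80% of the first. Counted over distinct pairs it was above the range, at 1.82% against 1.35, 1.18 and 1.50%. The upstream V segment with the proximal Jα segment held 0.305% against 0.241, 0.147 and 0.226%. The primers point in opposite directions, and an effect of this on the downstream share was not tested. The downstream segment starts at 54230001, so fragments between the baits and that position are left out of this share. Within 10 kb downstream of the baits, the second bait held 4.50% of the fragments against 2.82, 3.97 and 2.86%, above the range. Reads with at least 1 fragment in the downstream segment made up 10.4% with the second bait. They made up 10.9, 10.2 and 9.73% with the first, so the baits overlapped. This overlap held under 6 of 10 alternatives: the second bait was above the range over all chromosome 14 pairs (6.73% against 5.44 to 6.10%) and without replicate 1 of the first bait, and below it without pairs at *Trac* and the enhancer (9.99% against 10.2 to 11.03%) and without those from 54185001 to 54230000 (10.6% against 11.3 to 12.7%).

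**Figure D3:**
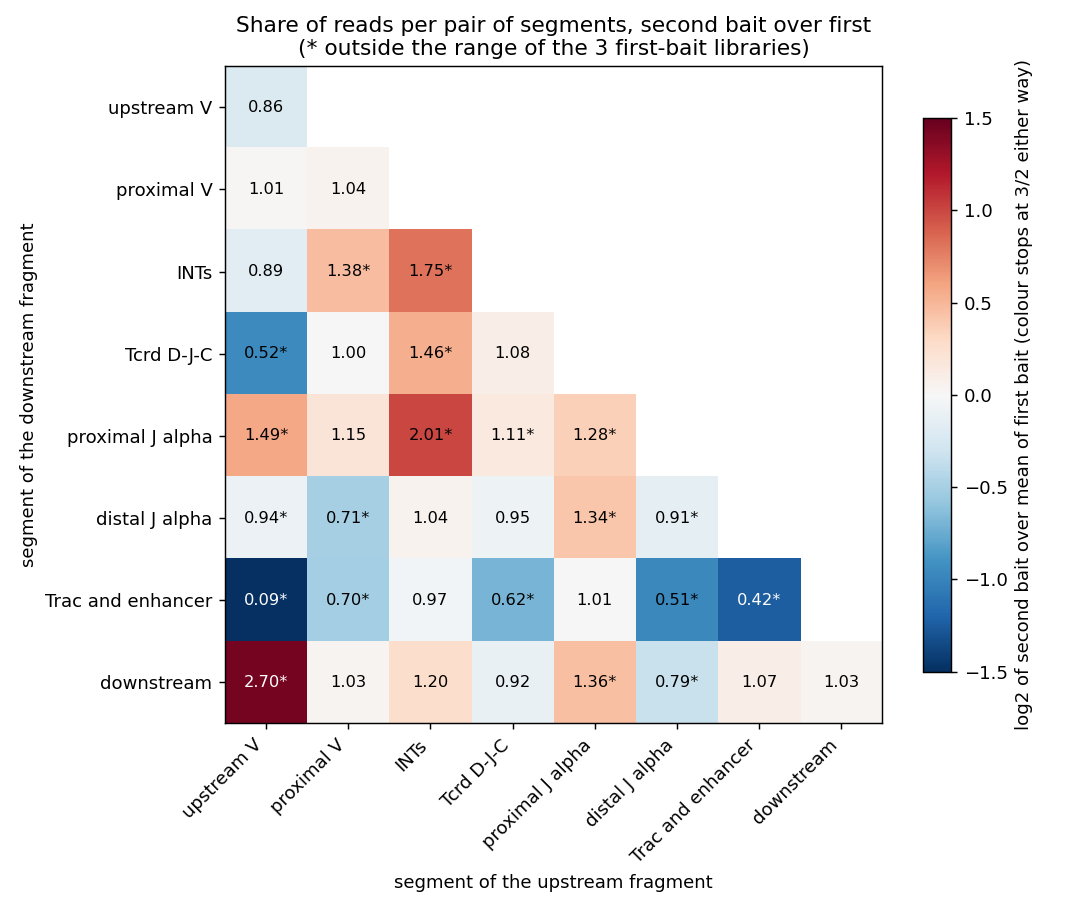
Ratio of the second bait to the mean of the 3 first-bait libraries for the share of reads in each of the 36 pairs of segments (numbers in the cells), coloured by its log2, with an asterisk where the second bait is outside the range of the first. The highest ratios among pairs with the INTs are 2.01 with the proximal Jα segment and 1.75 within the INTs, and the row of the *Trac* and enhancer segment holds the lowest.

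Contact counts fall with the distance between 2 fragments, so contacts between elements were also divided by the average count that the library had for bins equally far apart. On this scale proximal Jα with the INTs stood at 14.8 with the second bait against 7.25, 11.3 and 7.78 with the first, and at 12.8 against 8.40, 10.6 and 8.93 over distinct pairs. With the bin of *Traj61* to *Traj56* alone it stood at 20.6 against 8.30 to 20.01. The INTs with the proximal V segment stood at 2.80 against 1.63, 2.12 and 2.21. Proximal Jα with the proximal V segment stood at 1.65 against 1.19, 1.20 and 1.55, now just above the range. All of these were above the mean of their distance for both baits, and higher for the second. This scale does not correct for the total of each element. The INTs and the proximal Jα segment each held more of all fragments with the second bait, at ratios of 1.47 and 1.32. Whether their contacts rose beyond these totals was not tested on this scale.

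Within the V genes, the contacts of the INTs held a larger share of the reads with the second bait at most bins. The 10 V genes followed occupy 9 bins, as *Trav3-4* and *Trav12-4* share 1. The share of reads that join the INTs to the V gene's bin was above the range of the first bait for 7 of the 9 bins and below it for 1. Of all bins outside the INTs, 33.0% were above and 17.4% below. *Trav21*, listed as *Trav21-dv12* in the annotation, reached 14.8 times the mean of its distance with the INTs, against 8.40, 9.26 and 7.34. *Trdv2-2* with the INTs reached 9.41 against 1.62, 5.38 and 4.98, and *Trdv3* 9.10 against 2.23, 4.66 and 4.62. Over distinct pairs *Trav17* with the INTs stood at 8.27 against 2.40, 8.21 and 6.19, from 24 pairs against 5, 7 and 8. In reads, at 9.23 against 2.73, 4.88 and 7.63, it was above the range too. *Trav23* was the 1 bin below it, at 4.52 against 6.88, 11.8 and 7.33.

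The proximal Jα segment showed a similar split. Its reads with the V gene's bin were above the range of the first bait in 5 of the 9 bins and below it in 1. Of all bins outside that segment, 29.4% were above and 12.8% below. *Trdv2-2* stood at 12.8 times the mean of its distance against 6.16, 8.51 and 4.80, *Trav18* at 10.7 against 6.05, 3.49 and 4.64, and *Trav17* at 3.98 against 0.716, 1.20 and 1.05. For *Trav21* the baits were closer, at 12.4 against 7.36, 11.1 and 11.98. *Trav23* was again lower, at 0.725 against 1.79, 1.91 and 2.84. Single genes rest on few molecules: the second bait had 30 distinct pairs for *Trdv2-2* with proximal Jα, 6 for *Trav17* and 4 for *Trav23*, and the first bait 5 to 9, 1 to 2 and 4 to 6 per library. *Trdd2*, the D segment between the INTs and TEAp, stood at 14.8 with the INTs against 9.02, 9.87 and 13.4, and at 6.34 with proximal Jα against 4.85, 4.71 and 4.81. *Trac* fell below the range with both, at 8.21 with the INTs against 13.9, 12.3 and 12.1 and at 5.28 with proximal Jα against 10.7, 10.1 and 10.1.

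**Figure D4:**
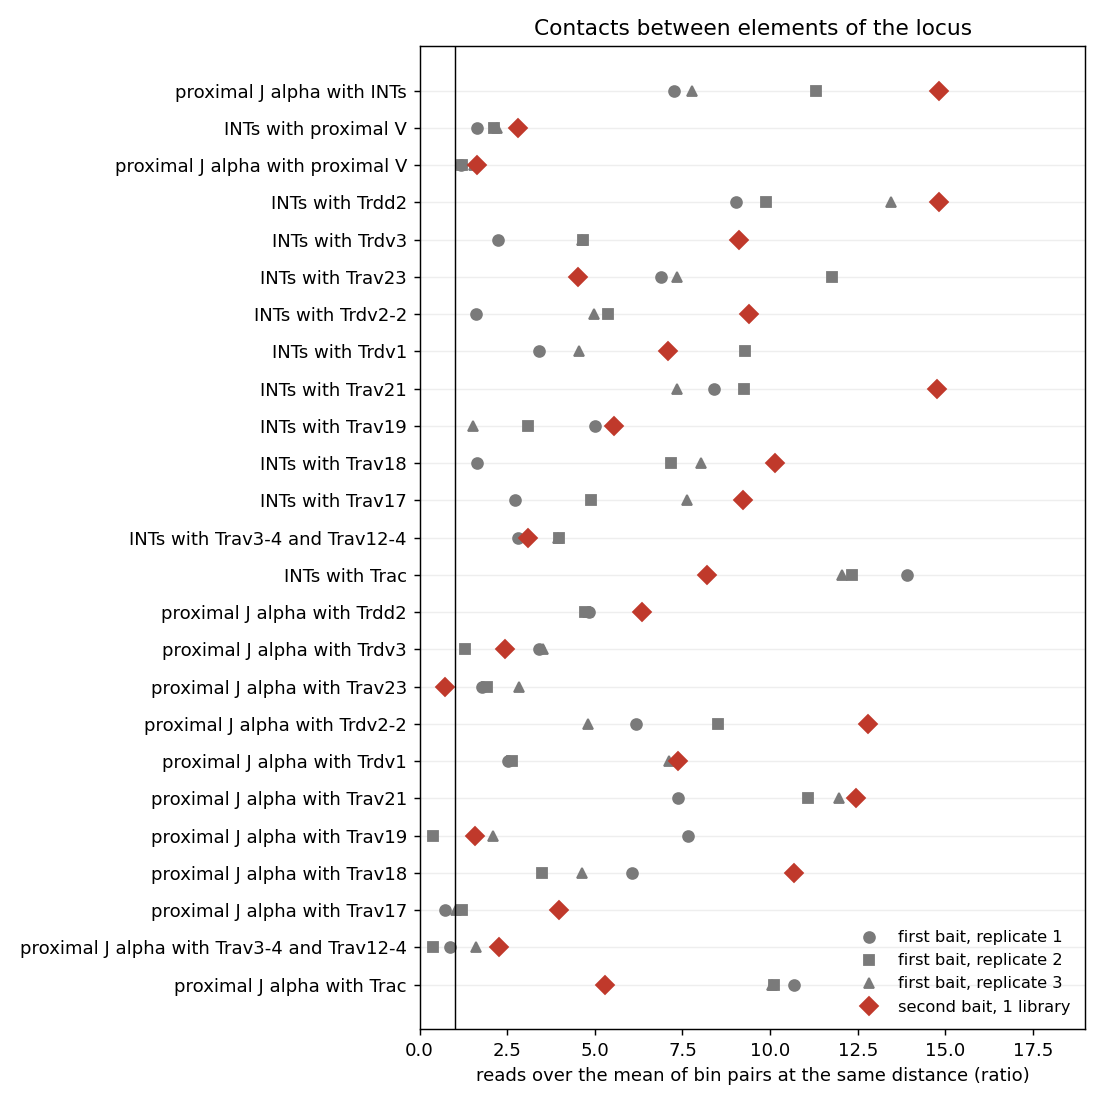
Reads that join 2 elements, divided by the average count of the library for bins equally far apart (ratio, x axis), for the INTs and the proximal Jα segment with each other, with the proximal V segment and with single genes. Grey symbols are the 3 first-bait libraries and red diamonds the second bait, which lies right of all grey symbols for proximal Jα with the INTs (14.8 against 7.25 to 11.3) and left of them for *Trac* and *Trav23* with either element.

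Contacts with the genes themselves, counted in 4 kb windows centred on each gene whatever the other fragment, were above the range of the first bait for 11 of the 16 genes followed, below it for 1 and within it for 4, beside 23.2% of all bins above. The windows of *Traj61*, *Traj58*, *Traj57* and *Traj56* overlap, as do those of *Trav3-4* and *Trav12-4*, so fragments there count for several genes, whereas bins do not overlap. The genes are those the study names. *Trdv2-2* had the highest ratio, at 1.59% of the fragments against 0.794, 0.938 and 0.828%. *Trdv1* held 0.954% against 0.474, 0.617 and 0.656%, *Trdd2* 1.99% against 1.19, 1.48 and 1.36%, and *Trav21* 1.37% against 1.05, 0.953 and 1.12%. *Traj58*, near the upstream end of the Jα array, held 2.86% against 1.92, 2.44 and 2.12%. *Trac* was the 1 gene below, at 1.57% against 4.56, 4.35 and 3.64%. *Trav3-4*, *Trav12-4*, *Trav19* and *Trav23* were within the range, so the V genes did not all move alike. Over distinct pairs 13 genes were above, with *Trav3-4* and *Trav12-4* added.

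Finally, the fragments found with the proximal Jα genes were compared with those found without them. The window from *Traj61* to *Traj56* (54155005 to 54159325) was taken as the site of interest (SOI), and for each further site the log2 ratio of its share among the other fragments of reads with the SOI to its share among fragments of reads without it was taken. The second bait had 4238 reads with the SOI and the first 1710, 841 and 805. For the INTs the log2 ratio was 0.21 with the second bait, where 15.0% of the other fragments were at the INTs with the SOI (95% interval 13.99 to 16.14%) and 13.0% of fragments without it. It was -0.22, 0.81 and -0.23 with the first bait, so the second lay inside a wide range.

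For the 5 V genes *Trav3-4*, *Trav12-4*, *Trav17*, *Trav19* and *Trdv2-2* summed, the log2 ratio was 0.57 with the second bait, from 3.92% with the SOI (95% interval 3.37 to 4.54%) and 2.65% without. The first bait gave 1.32, 0.41 and 1.11. All 4 libraries thus had more of these V genes with the SOI than without it when reads were counted. Over distinct pairs the second bait stood at 0.32, from 26 pairs, and the first at 0.52, -0.30 and 1.09, from 11, 5 and 12 pairs. Of the single genes, *Trdv2-2* stood at 0.58 against 1.57, 1.24 and 0.90, below the range in reads, and at 0.61 against 0.45, 0.09 and 0.79 in distinct pairs, within it. *Trav17* stood at 1.39 against 1.21, 0.84 and 0.90 in reads, above the range, and at 0.30 against 0.67, 1.34 and 0.52 in distinct pairs, below it. An order between the baits was not detectable for single genes at this depth, with 17 and 3 distinct pairs for these genes with the second bait.

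The proximal V segment as a whole was less frequent with the SOI than without it in all 4 libraries, with log2 ratios of -1.21 for the second bait and -0.83, -0.93 and -0.35 for the first. The *Tcrd* D–J–C segment stood at -0.49 against -0.09, -0.08 and 0.04. Both were below the range of the first bait in reads and, at -1.06 and -0.22, in distinct pairs.

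**Figure D5:**
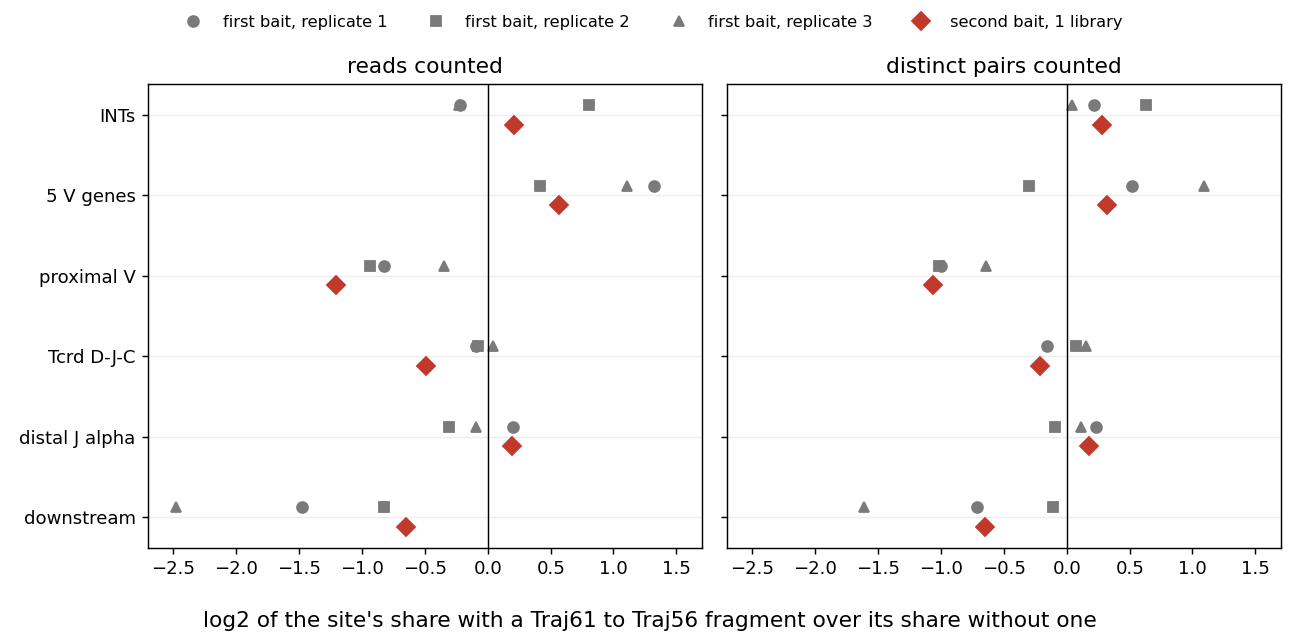
Log2 ratio of the share of each further site among reads with a *Traj61* to *Traj56* fragment to its share among reads without one (x axis), counted in reads (left) and in distinct pairs (right). The red diamond of the second bait lies among the grey symbols of the 3 first-bait libraries for the INTs and the 5 V genes and left of them for the proximal V and *Tcrd* D–J–C segments.

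Over the 6328 pairs of 5 kb bins, the counts of the second bait correlated with those of the first with Pearson coefficients of 0.741 to 0.793 and Spearman coefficients of 0.470 to 0.480. The TEAp bait, with 3 libraries of the same cells, served as a yardstick for a bait elsewhere in the locus: it reached 0.596 to 0.675 with the first bait and 0.708 to 0.728 with the second. Between first-bait libraries the coefficients were 0.906 to 0.914 and 0.462 to 0.474. By Pearson the second bait was therefore less like the first than the first-bait libraries were like each other, and by Spearman it was not. The Spearman coefficients of the TEAp bait were 0.488 to 0.520 with the second bait and 0.430 to 0.478 with the first. Those with the second bait exceeded those between first-bait libraries, so no likeness of the enhancer baits is read from Spearman. Over pairs of different bins the Pearson coefficients were 0.687 to 0.761 between the baits and 0.769 to 0.817 between first-bait libraries. The TEAp bait reached 0.733 to 0.749 with the second bait on this scale, inside the span of the second with the first, and 0.496 to 0.562 with the first. Bins share fragments and libraries share a genome, so these coefficients are descriptions.

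Over the totals of single bins, the TEAp bait reached Pearson coefficients of 0.768 to 0.794 with the second bait and 0.562 to 0.654 with the first. The coefficients were 0.770 to 0.860 between the enhancer baits and 0.978 to 0.989 between first-bait libraries. Without the pairs that have a fragment from 54185001 to 54230000 they were 0.945 to 0.970 and 0.980 to 0.987. The share of fragments that would have to change bins was then 11.3 to 17.7% between the baits and 8.24 to 10.9% between first-bait libraries. The profiles of the 2 baits were thus closer once the last 40 kb or so before them were left out, and still farther apart than any pair of first-bait libraries.

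Single pairs of bins were too thin to set beside these sums. By the fixed rule, the 5 pairs of different bins with the highest ratio had 24 to 72 reads with the second bait but only 1 to 9 distinct pairs. The highest was the bin from 54110001 with that from 54145001, inside the *Tcrd* segment, with 26 reads from 3 distinct pairs against 0, 0 and 1 reads. The 5 lowest had 0 reads with the second bait, and at most 7 distinct pairs in any first-bait library. They include the bin from 53795001 with that of *Trac*, at 6, 11 and 4 reads with the first bait, and a count of 0 in the second allows up to 0.00416% of its reads.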

How the data were processed

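The comparison used the 3 first-bait and 1 second-bait Eα libraries of CBE+/+ *Rag1*-/- DP thymocytes, with 3 TEAp libraries for the map correlation. The authors trimmed reads (fastp 0.20.0, cutadapt 1.18), aligned MboI fragments to mm10 (Bowtie2 2.4.5, SAMtools 1.9, bedtools 2.29.2, versions per the submitters' processing notes), removed self-ligated, off-target and continuous fragments, and deposited raw counts per pair of 5 kb bins and the reads behind them. The study's methods speak of unique reads, but the deposited read lists hold several reads for the same 2 aligned fragments (2.47 to 5.47 reads per distinct pair on chromosome 14), and how copies were treated is not given in the sources used here. Files at other resolutions and normalized files were not used here. The deposited counts equalled a rebinning of the reads in all 6328 bin pairs of the region.

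Reads with both fragments in 53740001 to 54300000 of chromosome 14 (17006 to 72123 per library) were turned into shares of reads or of fragments, and the second bait was set against the lowest and highest of the 3 first-bait libraries with no test. Distinct pairs are reads with the same 2 aligned fragments counted once. Intervals are 95% Wilson intervals, and limits for a count of 0 use 3 counts. Log2 ratios around the SOI used a pseudocount of 0.5 and 4 kb windows for genes. The scripts were tested on simulated data. Python 3.11.15, numpy 2.4.6, scipy 1.17.1 and matplotlib 3.10.9 were used.

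Named items were the genes the study names in the region, the 8 segments (windows of the INTs and proximal Jα inferred, the latter reaching past *Traj56* to *Traj53*), the 5 bins and the 5 pairs of different bins with the highest and the lowest ratios (bins with at least 0.5% of the fragments, pairs with at least 20 reads at the depth of the second bait), and MboI fragments within 10 kb of the baits with at least 1%. Members and lists were chosen with earlier results of these data known. Alternatives were distinct pairs, 10 kb bins, other gene windows, pairs within 1 bin or at *Trac* and the enhancer left out, all chromosome 14 pairs as the base, log2(CPM + 1) for the correlation, and each first-bait library left out. Each sequencer of the second bait alone, pairs with a fragment from 54185001 to 54230000 left out, and proximal Jα narrowed to the bin of *Traj61* to *Traj56*, were added after seeing the data.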

Additional observations from a re-analysis of the deposited data

How the results depend on the processing

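No paired analysis was possible because the second bait has 1 library and no result comes from a test. Of 104 values under alternatives, 88 moved by less than a set spread and 16 moved more. This spread was that of the first-bait libraries, and for counts a factor of 1.5. For the map correlation it was that of the coefficients between the baits. The difference changed sign in 8, all of results within the range in the main setting: 3 for the downstream share, 3 for the INTs with the SOI and 2 for proximal Jα with proximal V. Proximal Jα with the INTs stayed above the range under all 11 alternatives, and its ratio to the same distance under all 10. The second bait minus the mean of the first, in percentage points, was as follows. For proximal Jα with the INTs it was 0.947, 1.35 without pairs within 1 bin, and 0.420 with proximal Jα narrowed to 1 bin of its 3. For the INTs with the proximal V segment it was 1.37, 2.09 without pairs within 1 bin, and 0.673, within the range, without pairs from 54185001 to 54230000. Without those pairs, proximal Jα with proximal V went from 0.210 to -0.152, and the downstream share from 0.145 to -1.40. The downstream share was 0.862 over all chromosome 14 pairs. The ratio to the same distance was higher by 6.03, and by 3.49 over distinct pairs. The 5 V genes with the SOI differed by -0.38 on the log2 scale, and by -0.93, below the range, with 2 kb windows. Bins outside the range numbered 77 (68.8% of the bins), and 36 of the 56 bins of 10 kb (64.3%). The mean map correlation between the baits was 0.761. It was 0.828 over distinct pairs, 0.717 without pairs within 1 bin, 0.789 without *Trac* and the enhancer, 0.806 with 10 kb bins, 0.876 without 54185001 to 54230000, and 0.501 on log2(CPM + 1), where it was no longer below the first-bait libraries. The 10 kb setting has fewer bins and the narrowed segment a smaller window. The cause of the shifts was not tested.

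With each first-bait library left out in turn, classes outside the range numbered 23 to 28 and bins 83 to 92. The differences ranged from -0.130 to 0.473 for the downstream share, 0.859 to 1.12 for proximal Jα with the INTs, 0.0924 to 0.384 for proximal Jα with proximal V, 1.08 to 1.61 for the INTs with proximal V, -0.08 to 0.44 for the INTs and -0.65 to -0.20 for the V genes with the SOI, and 5.27 to 7.29 for the ratio to the same distance. The map correlation was 0.746 to 0.772. Leaving out replicate 1 put the downstream share above the range, replicate 3 proximal Jα with proximal V above it, and replicate 2 the INTs with the SOI above it and the V genes below it.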
